A study of Mus musculus with 2 samples.

Results

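The genes described here encode the kinases, cyclins, checkpoint proteins, kinetochore subunits and kinesin motors that carry a cell through mitosis. They were chosen by symbol, by a rule that uses no measured value: probe sets whose only gene symbol in the platform table was a numbered Kif gene, a Cenp gene, Aurka, Aurkb, Bub1, Bub1b, Bub3, Ndc80, Nuf2, a Spc24 or Spc25 symbol, or 1 of a short list of mitotic genes (Cdk1, the mitotic cyclins, Plk1, Ttk, Cdc20, Mad2l1, Birc5, Incenp, Top2a, Tpx2 and Prc1). That rule found 113 probe sets of 58 genes, among 12393 genes on the array. Because the rule takes every numbered kinesin, 17 of the 58 genes are kinesins best known for cargo transport, cilia or general microtubule turnover, and they are kept apart below. Ccnb1 had no probe set with a symbol of its own in the table used and has no value here.

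The samples were iPSCs of the mouse, that is, pluripotent cells made by reprogramming somatic cells, in 1 hybridized sample and 1 live sample, each measured on 1 Affymetrix array. Both samples carry the source name iPS-2i and were grown in the same way, in serum medium for mouse embryonic stem cells with 2i, in which inhibitors of MEK and GSK3 keep the cells naive. The labels give no strain, genotype, age or clone, and no hybridization partner or probe. Values are log2 GCRMA values, where GCRMA is a method that corrects each probe for background by its base composition, and each difference below is hybridized minus live, so 1 log2 unit is 2-fold. With 1 array per group there is no replicate error and no test, the number of arrays limits the precision, and the hybridization cannot be told apart from any other difference between the preparations. All 10 pluripotency markers checked averaged at least 5 over the 2 arrays, and of 10 fibroblast markers, which would mark feeder cells, 2 did.

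Entry into mitosis is driven by Cdk1 bound to cyclins A and B. Aurora and Polo kinases then build the spindle, and kinetochores assembled on centromeric chromatin attach chromosomes to its microtubules. Until every kinetochore is attached, the spindle checkpoint holds back Cdc20, the activator of the anaphase-promoting complex. Mitotic kinesins slide, cross-link or shorten microtubules, and the passenger complex of Aurora B, Incenp and Birc5 corrects faulty attachments and later works in cytokinesis. Pluripotent stem cells of the mouse divide quickly in culture, and the lengths of their cell cycle phases were not measured here. Many genes of mitosis are transcribed late in the cell cycle through 2 promoter elements, the cell cycle genes homology region (CHR) and the CCAAT box bound by NF-Y.

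Upstream sequences are shown to let a reader see these elements in members of different roles and their lack in Kif2a, a kinesin of the group kept apart. RefSeq promoter windows (build GRCm38.p6, 250 bases before to 50 after each gene's start) were found for 50 of the 58 genes, in 59 windows. The 250 bases before the start are printed 5′ to 3′ on the gene's strand, in lower case, with capitals marking TTTGAA or TTCGAA (CHR), CCAAT, and TTCGCGC or TTGGCGC (E2F), each searched on both strands. On its other strand the CCAAT box reads ATTGG and can share letters with an E2F match, as can the end of a CHR, so a stretch may count for both. The stretch of Cdk1 lies at chr10:69352913-69353162 (minus strand), Cdc20 at chr4:118437344-118437593 (minus strand), Kif11 at chr19:37376132-37376381 (plus strand) and Kif2a, in 1 of its 2 windows, at chr13:107022356-107022605 (minus strand).
Cdk1: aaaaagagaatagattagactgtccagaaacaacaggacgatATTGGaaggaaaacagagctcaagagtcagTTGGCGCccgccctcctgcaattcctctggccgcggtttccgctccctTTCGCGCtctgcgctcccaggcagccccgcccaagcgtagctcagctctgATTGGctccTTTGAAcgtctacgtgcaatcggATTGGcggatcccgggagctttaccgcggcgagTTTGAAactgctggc
Cdc20: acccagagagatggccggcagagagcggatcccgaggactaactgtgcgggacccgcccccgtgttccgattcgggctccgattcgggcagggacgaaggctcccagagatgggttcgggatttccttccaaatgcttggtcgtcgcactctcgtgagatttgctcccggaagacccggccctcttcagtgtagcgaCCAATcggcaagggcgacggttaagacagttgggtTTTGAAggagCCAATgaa
Kif11: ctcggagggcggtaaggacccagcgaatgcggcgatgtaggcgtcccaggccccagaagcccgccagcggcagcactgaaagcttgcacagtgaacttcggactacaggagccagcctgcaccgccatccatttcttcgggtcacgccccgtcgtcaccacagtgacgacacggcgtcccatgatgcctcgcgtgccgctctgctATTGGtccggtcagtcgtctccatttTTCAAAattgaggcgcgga
Kif2a: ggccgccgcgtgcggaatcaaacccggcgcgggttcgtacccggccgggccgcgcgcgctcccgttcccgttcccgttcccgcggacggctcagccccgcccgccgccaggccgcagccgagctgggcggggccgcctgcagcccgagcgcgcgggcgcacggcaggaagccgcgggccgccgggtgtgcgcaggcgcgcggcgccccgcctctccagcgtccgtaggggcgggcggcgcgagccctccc
The stretch of Cdk1 holds 2 CHR, 3 CCAAT and 2 E2F matches, that of Cdc20 1 CHR and 2 CCAAT, and that of Kif11 1 CHR and 1 CCAAT, whereas that of Kif2a holds none of these letters.

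Over the whole windows, both CHR and CCAAT letters occurred in 22 of 41 windows (53.7%) of members outside the transport and other kinesins, in 0 of 18 windows of the transport and other kinesins, and in 7.52% of all 32851 windows in the table. CHR letters, with or without CCAAT, were in 58.5% of the 41 windows, against 19.2% of all windows, and CCAAT in 75.6% against 37.4%. E2F letters were in 4.88% against 3.89%. Differences between the arrays overlapped between members with and without both elements. Among members outside the transport and other kinesins, the 20 measured genes with both elements had a median difference of -0.13 and a range of -1.22 to 1.02, with 1 gene at least 2-fold higher and 1 lower. The 15 without both had a median of 0.12 and a range of -1.63 to 2.27, with 3 higher and 2 lower. Over all 7262 genes compared, 8.43% were at least 2-fold higher and 15.4% lower. Counts in sets of 20 and 15 genes are too small to be set apart from those shares.

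Of the 58 genes, 49 averaged 5 or more (log2, over the 2 arrays) at their brightest probe set, and only these were compared. Within 1.5-fold on the 2 arrays lay 29 of 49, or 59.2%, a share near the 52.7% of all 7262 genes at that level. Higher by 2-fold or more in hybridized cells were 6 genes (Ndc80, Cenpe, Cenph, Kif3a, Kif2a and Bub1), or 12.2%, beside 8.43% of all genes. At least 2-fold lower were 3 (Kif2c, Cenpv and Plk1), or 6.12%, beside 15.4% of all genes. The median difference was 0.00 over the members and -0.17 over all genes. Centred on the median gene, the split became 9 higher and 3 lower, and centred on the array's spiked-in hybridization controls, which adds 0.80 to every difference, 19 higher and 0 lower. All genes then split 2310 against 206, so that any difference between -0.80 and 0 turns positive under this centring. The shift is taken from the median of 18 controls, whose own differences ran from -1.22 to -0.15. These are bulk samples, in which a change in the share of cells in mitosis and a change in mitotic RNA per cell cannot be told apart.

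**Figure D1:**
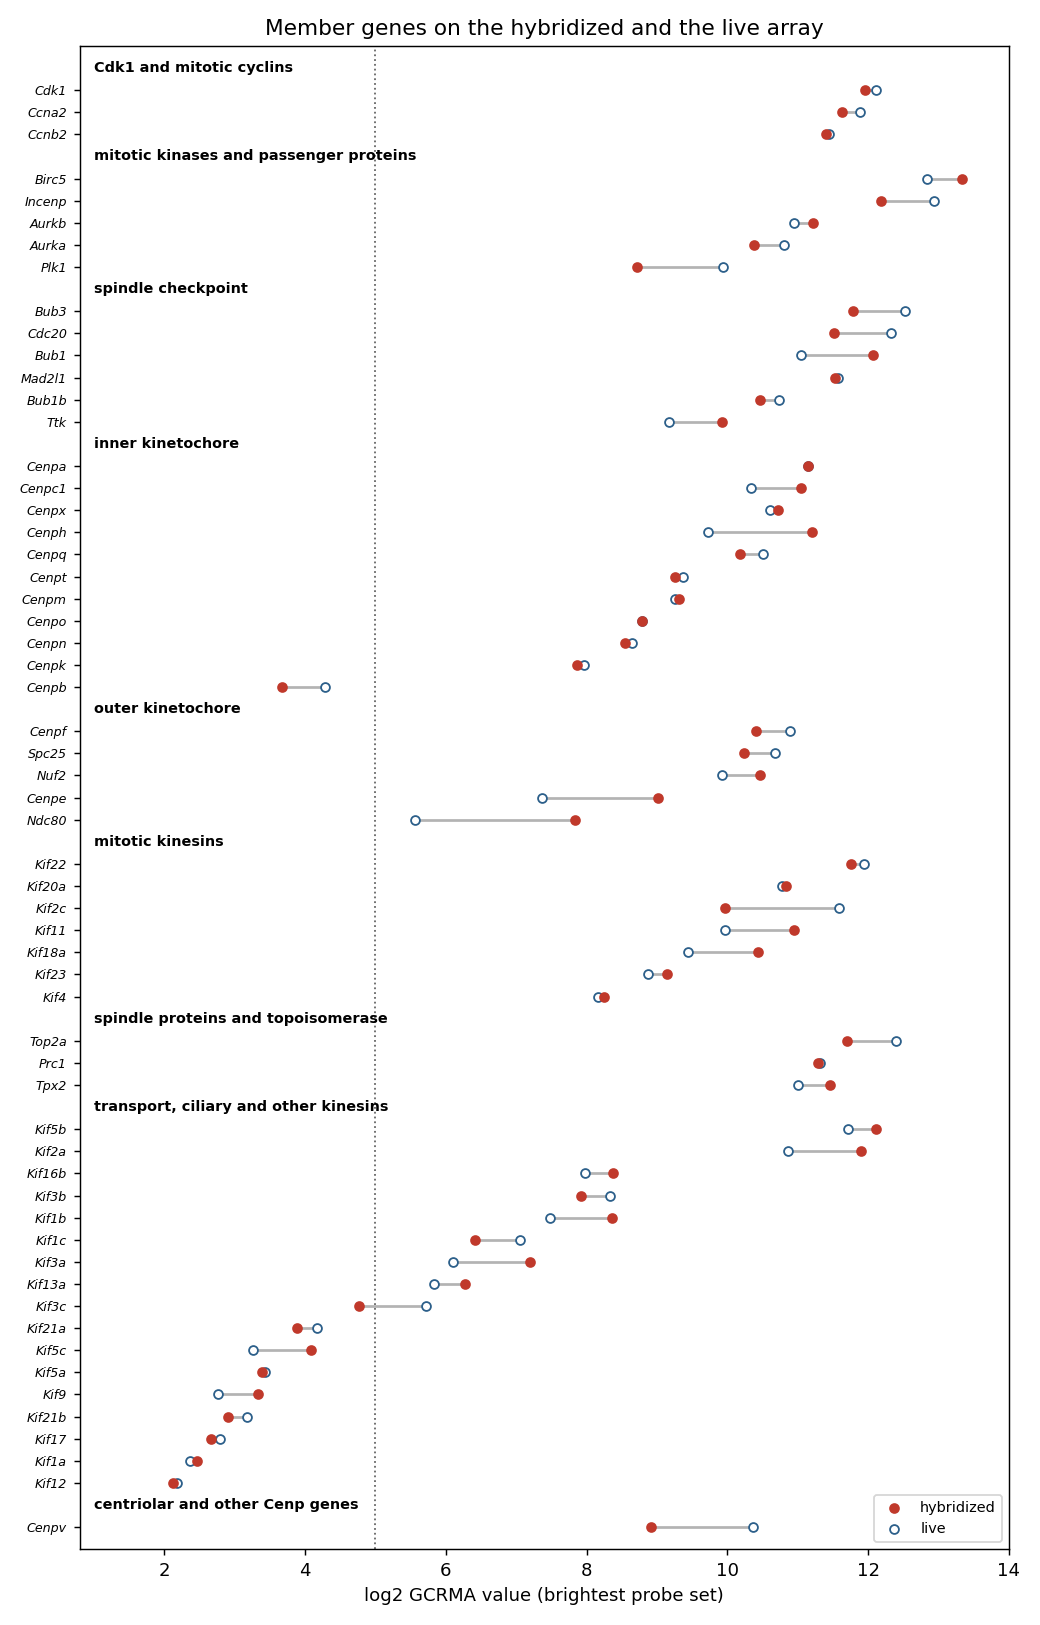
Log2 GCRMA value of each of the 58 genes at its brightest probe set in the hybridized sample (filled red) and the live sample (open blue), grouped by role, with the dotted line at the level of 5; values of different genes are not comparable. The points of Cenpa and Cenpo coincide, while Ndc80, Kif2c and Cenpe show the widest gaps.

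Differences on these arrays narrow with signal, so the members were also read by level. With a mean from 5 to under 7, 2 of 5 members were at least 2-fold higher and 0 lower, beside 7.6% and 28.6% of all genes there. From 7 to under 9, 1 of 8 was higher and 0 lower, beside 12.4% and 20.6%. From 9 to under 11, 1 of 19 was higher and 3 lower, beside 9.12% and 10.6%. At 11 and over, 2 of 17 were higher and 0 lower, beside 2.83% and 3.48%. Weighted by the members' levels, these shares come to 7.32% higher and 11.6% lower, or 3.59 and 5.68 genes of 49, so the counts of 6 and 3 differ from the background by only a few genes.

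**Figure D2:**
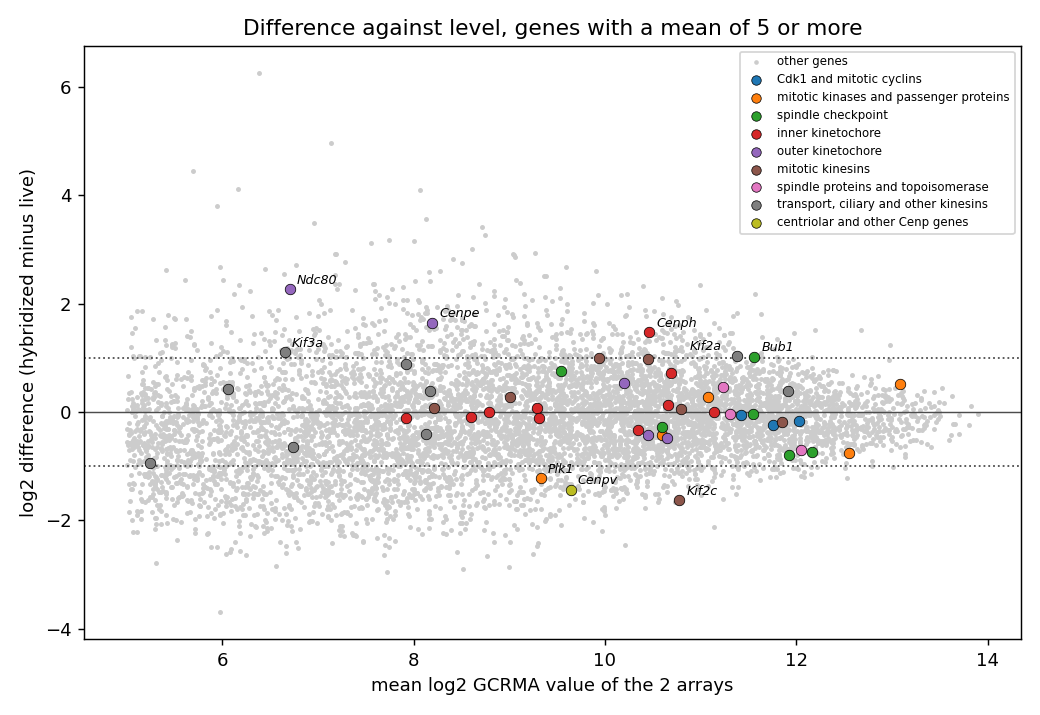
Log2 difference (hybridized minus live) against the mean log2 value for all 7262 genes at 5 or more (grey) and the 49 members (coloured by role), with dotted lines at 2-fold. The 9 members beyond 2-fold are named, and members with a mean of 11 and over lie between -0.80 and 1.04.

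Cdk1 and its cyclins read almost alike at their brightest probe sets. Cdk1, the kinase that starts mitosis, had 11.95 in hybridized and 12.11 in live cells. Ccnb2, a B-type cyclin that activates it, had 11.40 in hybridized and 11.45 in live cells. Ccna2, the cyclin of S phase and early mitosis, had 11.63 in hybridized and 11.88 in live cells at its brightest probe set. At its other it had 10.81 in hybridized and 11.70 in live cells, a wider difference of -0.89. All 3 genes were within 1.5-fold at the brightest probe set, with a median of -0.16 that turned to 0.64 when centred on the hybridization controls.

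The mitotic kinases and passenger proteins ran in both directions. Plk1, the Polo kinase of spindle assembly and mitotic entry, read 8.72 in hybridized and 9.94 in live cells, a difference of -1.22 on its only probe set. It was the one member of the 5 beyond 2-fold, beside 8.43% of all genes higher and 15.4% lower. Plk1 stayed below 0 under each alternative run, at -0.42 with the control centring. Aurka, the kinase of spindle poles, had 10.38 in hybridized and 10.81 in live cells. The passenger complex was not lower as a whole: Aurkb, its kinase, had 11.22 in hybridized and 10.94 in live cells, and Birc5, its subunit also called survivin, had 13.34 in hybridized and 12.83 in live cells. Incenp, the scaffold that activates Aurora B, went the other way with 12.18 in hybridized and 12.93 in live cells, and its second probe set read 8.36 in hybridized against 9.69 in live cells, a difference of -1.33. Another probe set of Incenp, whose mean was under the level, differed by 1.78. The median of the 5 genes was -0.43, or 0.37 with control centring.

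Spindle checkpoint genes were also mixed. Bub1, the kinase that recruits other checkpoint proteins to kinetochores, read 12.07 in hybridized and 11.05 in live cells, just past 2-fold at 1.02. Its second probe set did not repeat this, with 5.15 in hybridized and 6.01 in live cells, and the mean over both differed by 0.08. Ttk, the kinase Mps1 at the head of the checkpoint, had 9.92 in hybridized and 9.17 in live cells. Of the complex that holds back the anaphase-promoting complex, Mad2l1, which encodes the Mad2 protein, had 11.53 in hybridized and 11.57 in live cells, and Bub1b, which encodes BubR1, had 10.46 in hybridized and 10.74 in live cells. Cdc20, bound in that complex, had 11.52 in hybridized and 12.32 in live cells at its brightest probe set, and was lower on both others at -0.46 and -0.36, although control centring brought the first to 0.00. Bub3, the WD-repeat partner of Bub1 and BubR1, differed by -0.74, 0.21, -0.22 and 2.85 over its 4 probe sets from brightest to dimmest, so its direction depends on the probe set. The median of the 6 genes was -0.16, and 0.64 with control centring.

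Genes of the inner kinetochore, the constitutive centromere network that rests on CENP-A chromatin, read alike for most members. Cenpa, the histone H3 variant that marks centromeres, had 11.14 on both arrays. Cenpo likewise had 8.79 on both at its brightest probe set, but 8.15 in hybridized and 7.64 in live cells at its other at the level. Cenpk, Cenpm, Cenpn, Cenpt and Cenpx, further subunits of the network, all lay between -0.11 and 0.12. Cenpq, of the same subcomplex as Cenpo, differed by -0.33. The exceptions were Cenph, which forms a module with the product of Cenpk, with 11.20 in hybridized and 9.73 in live cells, a 2.77-fold difference on a single probe set, and Cenpc1, which encodes the scaffold CENP-C, with 11.05 in hybridized and 10.34 in live cells. Of 10 measured genes 1 was 2-fold higher and 0 lower, beside 8.43% and 15.4% of all genes, and the median was 0.00. Cenpb, the protein that binds a motif in centromeric satellite DNA, was under the level with 3.67 in hybridized and 4.29 in live cells. Cenpv, a centromere-associated protein outside this network, read 8.92 in hybridized and 10.36 in live cells, a difference of -1.44.

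The outer kinetochore, which grips microtubules, held the members furthest above the live sample at the brightest probe set. Ndc80, the subunit that contacts the microtubule, read 7.84 in hybridized and 5.57 in live cells, a 4.82-fold difference. Cenpe, the kinesin that carries chromosomes to the spindle equator, read 9.02 in hybridized and 7.37 in live cells, a 3.14-fold difference. Neither has a second probe set. Of the same Ndc80 complex, the 2 other subunits measured did not show a gap of that size, and Spc24 was not analysed here. Nuf2, the direct partner of Ndc80, had 10.46 in hybridized and 9.93 in live cells. Spc25, at the inner end of the complex, had 10.24 in hybridized and 10.67 in live cells. Cenpf, a large coiled-coil protein of the outer kinetochore, had 10.41 in hybridized and 10.89 in live cells. The median of the 5 genes was 0.53, with 2 at least 2-fold higher and 0 lower, beside 8.43% and 15.4% of all genes. At a level of 7, which leaves out Ndc80, the median was 0.05.

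Mitotic kinesins had a median of 0.08 over 7 genes. At the brightest probe set 0 were at least 2-fold higher and 1 lower, beside 8.43% and 15.4% of all genes. Kif11 (Eg5), which pushes spindle poles apart, read 10.94 in hybridized and 9.96 in live cells. Kif18a, which damps chromosome movements at the metaphase plate, read 10.43 in hybridized and 9.44 in live cells. Both therefore lay just under 2-fold, at 0.98 and 0.99. Kif4, a chromosome-bound kinesin of the anaphase midzone, had 8.25 in hybridized and 8.17 in live cells, and Kif20a, a kinesin of cytokinesis, had 10.83 in hybridized and 10.77 in live cells. Kif23, the motor of centralspindlin, had 9.15 in hybridized and 8.87 in live cells. Kif22, which pushes chromosome arms outward, had 11.76 in hybridized and 11.94 in live cells. The spindle proteins Tpx2, an activator of Aurora A, and Prc1, a cross-linker of midzone microtubules, differed by 0.46 and -0.03 at the brightest probe set and by -0.58 and 0.81 at the other. Top2a, the topoisomerase that untangles sister chromatids, read 11.70 in hybridized against 12.40 in live cells.

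Kif2c, the microtubule-shortening kinesin MCAK, changed sign with the probe set. Its brightest probe set, of the suffix _x_at that marks probes shared with other sequences, read 9.96 in hybridized and 11.59 in live cells, a difference of -1.63. The 2 others at the level read 6.90 in hybridized against 4.84 in live cells and 5.69 in hybridized against 4.72 in live cells, or 2.06 and 0.97 higher in hybridized cells. Both live values are under 5, so these 2 passed the level only through the hybridized array, which favours a positive difference. The remaining probe set, under the level, read 4.39 in hybridized and 5.29 in live cells, a difference of -0.90. With suffixed probe sets left out Kif2c was thus 2.06 higher, and averaged over its 4 probe sets it differed by 0.13, so no direction can be given for this gene.

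Transport and other kinesins were measured at the level for 9 of 17 genes, with a median of 0.39, 2 at least 2-fold higher and 0 lower, beside 8.43% and 15.4% of all genes. Kif2a, a relative of Kif2c that shortens microtubules in neurons and at spindle poles, read 11.90 in hybridized and 10.86 in live cells, and was 1.44 and 1.81 higher at its other probe sets at the level. Kif2a was thus higher at every probe set at the level. Kif3a, a motor subunit of the kinesin that builds cilia, read 7.20 in hybridized and 6.10 in live cells, with 0.91 at its other probe set. That other probe set of Kif3a read 5.49 in hybridized and 4.58 in live cells, so it passed the level only through the hybridized array. Kif3b, the partner of Kif3a, changed sign with the probe set. Its brightest read 7.92 in hybridized and 8.33 in live cells, and its other at the level differed by 0.63. Kif5b, the conventional kinesin of most tissues, had 12.11 in hybridized and 11.72 in live cells, Kif1b, a carrier of mitochondria and vesicle precursors, 8.36 in hybridized and 7.48 in live cells, and Kif16b, an endosome motor, 8.37 in hybridized and 7.98 in live cells. Kif13a, another vesicle carrier, differed by 0.43. Kif1c (-0.65) and Kif3c (-0.95) were on the other side, and Kif1c turned to 0.15 with control centring. The remaining 8 (Kif1a, Kif5a, Kif5c, Kif9, Kif12, Kif17, Kif21a and Kif21b), several of them known as neuronal motors, were under the level. Together with Cenpb these made up the 9 members not compared; none exceeded 4.29 on either array or was 2-fold apart. Nearest the limit were Kif3c, with a mean of 5.25, and Kif21a, with a mean of 4.03.

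**Figure D3:**
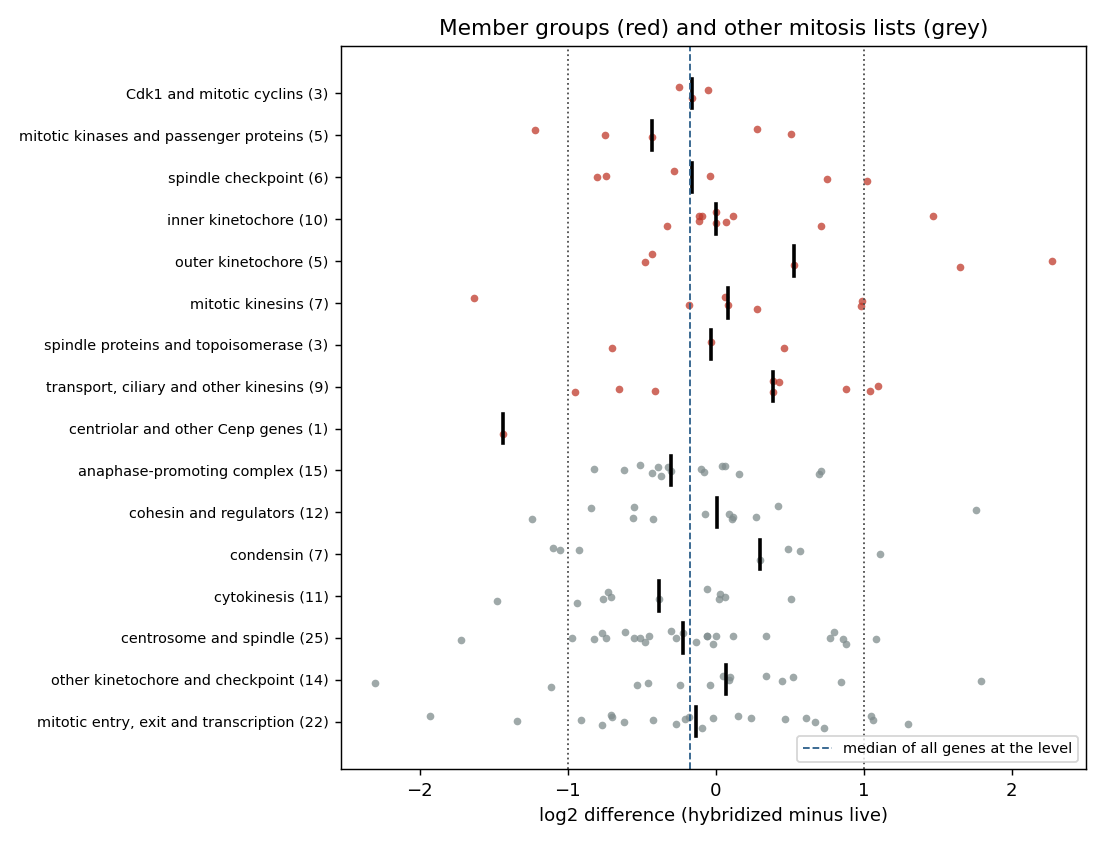
Log2 difference (hybridized minus live) of each gene at the level, by role for the members (red) and for 7 lists of other mitosis genes (grey), with black bars for medians, dotted lines at 2-fold, the dashed line at the median of all genes and the number of genes in parentheses. As deposited the outer kinetochore has a median of 0.53 and the transport and other kinesins 0.39, and with control centring each median except that of Cenpv alone is above 0.

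Reading several probe sets of the same gene gave a wider picture than the brightest alone. For 20 members with more than 1 probe set at the level, the brightest had a median difference of 0.14 and the 32 dimmer ones a median of 0.86. Of these dimmer probe sets 13 were higher in hybridized cells by 2-fold or more, or 40.6%, and 1 lower, beside 21.3% and 8.37% of the 4145 dimmer probe sets of all genes. The dimmer probe set lay above its gene's brightest in 24 of 32 cases (75%) among members and in 62.3% of cases among all genes, by a median of 0.66 and 0.27. Among the 13, probe sets of Kif23, Bub3 and Kif2c read under 5 in live cells, at 4.11, 3.69 and 4.84. They passed the level only through the hybridized array. All but 1 of the 13 belonged to kinesins. There, 12 of 19 dimmer probe sets of 10 kinesin genes were at least 2-fold higher, against 1 of 13 of the 10 other genes; this split was chosen after the values were seen, probe sets of a gene share its transcript, and they are not replicates. Counting every probe set at the level, 19 of 81 member probe sets were at least 2-fold higher and 4 lower, beside 13.1% and 12.8% of all 11407.

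The kinesins show what this means for a single gene. Kif23 read 9.15 in hybridized and 8.87 in live cells at its brightest probe set, but 7.80 in hybridized and 4.11 in live cells at its second, a 12.9-fold difference. That live value is itself under the level of 5, which this probe set passed only through its hybridized value. Another Kif23 probe set, under the level, read 2.70 in hybridized and 2.77 in live cells. Kif11 differed by 0.98 at its brightest and by 0.01 and 2.91 at its others, the last with 9.62 in hybridized against 6.71 in live cells. A single gene thus gave near equality and a 7.52-fold difference on the same 2 arrays. Kif5b, with 5 probe sets at the level, differed by 0.39, 1.71, -0.04, 1.88 and 2.75 from brightest to dimmest. For Kif1b the order was 0.88, 2.38, 3.31 and 1.10, so all 4 were higher in the hybridized sample. Kif22 differed by -0.18 at an _x_at probe set, by 0.65 at one shared between transcripts or genes (_s_at) and by 1.68 at the one with no suffix, which read 9.02 in hybridized against 7.34 in live cells. By contrast, the 2 probe sets of Aurkb differed by 0.28 and 0.63, those of Cenpn by -0.09 and -0.32 and those of Kif3a by 1.10 and 0.91. The dimmer one of Kif3a passed the level only through its hybridized value. Over all genes the SD of the gap between the 2 brightest probe sets, scaled to a single probe set, was 0.73. This spread lies within the 2 arrays and covers no replicate error, and whether it reflects probes or different transcripts of a gene was not tested.

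**Figure D4:**
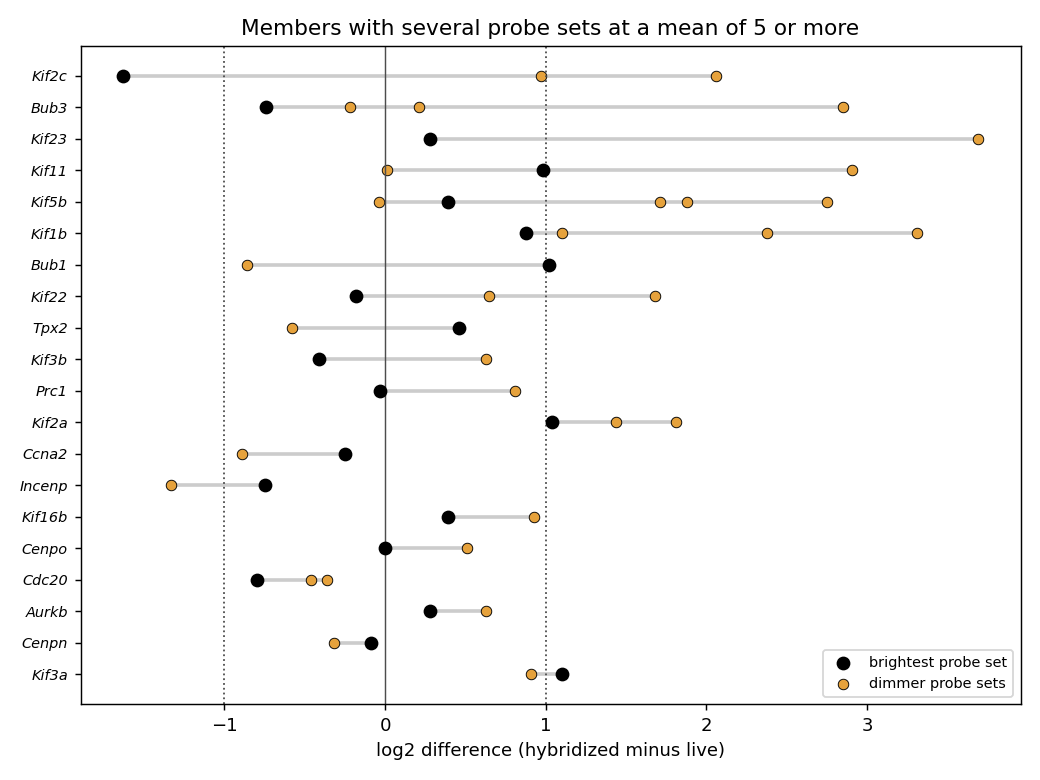
Log2 difference (hybridized minus live) of each probe set with a mean of 5 or more for the 20 members that have several, with the brightest in black and the dimmer ones in orange, ordered by the range within a gene. Kif2c, Bub3, Kif23, Kif11, Kif5b and Kif1b span more than 2 log2 units, while Kif3a and Cenpn span under 0.3.

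Control probe sets placed along the transcripts of 3 genes moved on the same arrays. For Actb, the 5′ minus the 3′ probe set was -0.50 in hybridized and -3.02 in live cells. For Gapdh it was -0.12 in hybridized and -1.93 in live cells, and for Tfrc -3.23 in hybridized and -3.73 in live cells. The 5′ signal was therefore nearer to the 3′ signal in the hybridized sample for all 3 genes, by 2.52, 1.81 and 0.50. For Tfrc the 5′ probe set read 5.96 in hybridized and 4.08 in live cells, the latter under 5, so its change is the least certain. Where along its transcript each member probe set lies was not used here, so the part of this shift in the differences between probe sets was not tested. Fibroblast markers moved too: 1 of 10 reached 5 in hybridized and 3 in live cells, with a summed linear signal of 116 in hybridized and 350.1 in live cells. Of the 10, 7 were lower in hybridized cells. Col5a1 read 5.43 in hybridized and 7.58 in live cells and Col1a1 4.46 in hybridized and 6.17 in live cells. At the other end, Col3a1 read 2.50 in hybridized and 2.31 in live cells. Dcn read 2.31 in hybridized and 2.13 in live cells, so both were under the level. The part of any feeder cells in the members' differences was not tested.

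Other genes of mitosis, from 7 lists, likewise stood on both sides of 0. Of the further kinetochore and checkpoint genes, 1 of 14 was at least 2-fold higher and 2 lower. Mis12, a link between inner and outer kinetochore, read 9.78 in hybridized and 7.99 in live cells, and Mad1l1, the checkpoint partner of Mad2, read 5.14 in hybridized against 7.44 in live cells. Of 7 condensin genes, which compact chromosomes, 1 was higher (Ncapg, 11.50 in hybridized against 10.39 in live cells) and 2 lower (Ncaph, 8.97 in hybridized against 10.07 in live cells, and Ncapd2, 9.28 in hybridized against 10.33 in live cells), although these 3 encode subunits of the same complex. Of 12 genes of cohesin and its regulators, Esco1, a cohesin acetyltransferase, was 1.76 higher and Mau2, a loader of cohesin, differed by -1.24. None of 15 genes of the anaphase-promoting complex and its partners was 2-fold apart, with Anapc2 at -0.82 and Cdc26 at 0.71 as the ends.

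Among 22 genes of mitotic entry, exit and transcription, 3 were at least 2-fold higher and 2 lower. Mastl, the Greatwall kinase that keeps mitotic phosphorylation in place, read 9.52 in hybridized and 8.46 in live cells, and Ensa, its substrate and an inhibitor of the PP2A phosphatase, 10.91 in hybridized and 9.61 in live cells. Pkmyt1, a kinase that holds Cdk1 inactive, read 6.14 in hybridized against 8.07 in live cells. Of 11 cytokinesis genes only Vps4a was 2-fold apart, at 8.26 in hybridized against 9.74 in live cells, and of 25 centrosome and spindle genes Tacc3, a spindle protein, was 1.08 higher and Clasp1, which stabilizes microtubule ends, differed by -1.72. Counts in these lists, from 0 to 3 genes in each direction, are too small to be set apart from the background of 8.43% and 15.4%.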

How the data were processed

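Per the labels' protocols, RNA was taken with Trizol LS, amplified and labelled as biotin cDNA with NuGEN kits. Each array has, as the authors deposited it, 1 value per probe set, taken here as log2; the base is inferred from GCRMA, which with affy is named in the submitters' processing notes, and from values between 1.02 and 14.24. Versions and the set of arrays normalized together were not given in the sources used here.

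Of 22690 probe sets, 64 are controls, 20380 have 1 gene in the platform table, 691 several and 1555 none named there; only the 20380 were used. All 58 member symbols matched RefSeq (GRCm38.p6) through Entrez IDs. A gene was represented by its brightest probe set (by mean over both arrays), compared at a mean of 5 or more and called at 2-fold. No model was fitted. Any member could be named, and of other lists the 2 genes furthest in each direction. The members' rule reads symbols only, but it and the lists were set with earlier results of these data known. The alternatives were other level limits, probe set rules, centrings, a loess correction (span 0.3), quantile normalization and thresholds of 1.5-fold and 4-fold. A planned comparison with protein length was not run, since no protein table was used here. The counting was tested on simulated data. Work was done in Python 3.11.15 with pandas 2.3.3, numpy 2.4.6, statsmodels 0.14.6 and matplotlib 3.10.9.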

Additional observations from a re-analysis of the deposited data

How the results depend on the processing

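Counts and medians were recomputed under 13 planned settings and 2 chosen after the data were seen, with a shift under 0.73 log2 units, or a count within 1.5 times, taken as no move. By this rule 122 of these values did not move and 20 did. The allowance is wider than every role group's median but that of Cenpv, so a change of sign can count as no move. Without _x_at, _s_at and _a_at probe sets the checkpoint median passed from -0.16 to 0.085. As a mean over probe sets that of mitotic kinesins passed from 0.08 to 0.72. Some values could not move under the probe set rules, such as that of Cenpv with its 1 probe set. The count of members at least 2-fold higher, 6, became 19 when centred on the hybridization controls, 11 at a 1.5-fold threshold, 1 at 4-fold and 19 of 81 over every probe set. The count at least 2-fold lower, 3, became 0 with control centring, 9 at 1.5-fold and 0 at 4-fold. Control centring, which adds 0.80 by construction, moved the median of all members to 0.80, and those of Cdk1 and cyclins to 0.64, kinases and passenger proteins to 0.37, the checkpoint to 0.64, the inner kinetochore to 0.80, the outer kinetochore to 1.33, mitotic kinesins to 0.88, spindle proteins to 0.77, transport and other kinesins to 1.19 and Cenpv to -0.64. Without _x_at, _s_at and _a_at probe sets the median was -1.22 for kinases and passenger proteins and 1.65 for the outer kinetochore, where fewer genes remain, and without _x_at and _s_at it was 0.98 for mitotic kinesins. Kif2c reversed to 2.06 under both of these, at a probe set that passed the level only through its hybridized value. As a mean over probe sets, whose members disagree, Kif2c reversed to 0.13. No paired analysis was possible because each group has 1 array.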
